A study of Mus musculus with 24 samples.

Results

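The interferon-stimulated genes described here are 44 named genes that interferons induce in mouse cells, and they were followed across 8 groups of mouse liver samples. They were found by name in a table of FPKM, which gives sequenced fragments relative to the length of the transcript and the size of the library. Of the 44 genes, 43 matched a locus, and because Igtp and Irgm2 share 1 locus they occupied 42 of the 31027 loci of the table. Ifi27 was the 1 gene with no locus of its name. The Ifi47 locus also carries the name Olfr56 and the Gbp6 locus also carries Gbp10, so these values belong to the named pairs. Ifit and Oas genes have near-identical copies that can share reads, and their single values are uncertain for that reason.

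Interferons are secreted proteins, and cells release those of type I and type III when they sense foreign or misplaced nucleic acid. Type I and type III interferons signal through receptor-bound JAK kinases to a complex that holds STAT2 and IRF9 and binds the interferon-stimulated response element (ISRE), while interferon gamma acts through the gamma-activated site (GAS). The induced genes encode antiviral effectors, sensors of viral RNA and DNA, GTPases that attack the compartments of intracellular parasites, and the transcription factors that amplify the response. In the liver they are expressed by hepatocytes and by resident macrophages, the Kupffer cells.

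The mice were of the strain C57BL/6J and were kept for 16 weeks on either chow or high fat food. All groups carried Alb-Cre, which expresses Cre recombinase from the albumin promoter and so acts in hepatocytes, and the control genotype carried Alb-Cre alone (AlbCre+). The other genotypes carried floxed Jnk1 (Jnk1flox/flox), floxed Jnk2 (Jnk2flox/flox) or both, and are called Jnk1, Jnk2 and Jnk1Jnk2 below; Jnk1 and Jnk2 encode stress-activated kinases and are listed as Mapk8 and Mapk9. Each of the 8 groups had 3 libraries from whole liver, so cells other than hepatocytes kept their JNK genes and contributed RNA. The labels do not say whether replicates were separate mice, and p-values therefore reflect only how much these samples vary, and that variation may be technical. In whole tissue, fewer cells of a type and less RNA per cell cannot be told apart.

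Mapk8 lay between 0.845 and 2.47 FPKM in the 12 libraries labelled as lacking it and between 3.38 and 5.77 FPKM in the others, and Mapk9 lay between 4.33 and 7.79 FPKM against 9.01 to 12.0 FPKM. Summed FPKM ranged from 634849 to 734352 in 21 libraries and from 849038 to 873399 in the 3 high fat Jnk1Jnk2 libraries. Those 3 libraries also stood apart by transcript length: across genes, the Spearman correlation between length and the deviation of a library from the mean lay between -0.618 and -0.555, against -0.248 to 0.39 in the other 21. For comparisons with high fat Jnk1Jnk2 the counts of calls and the changes of the genes named are therefore also given after the trend with length was removed from each library, while levels in FPKM are as deposited. The relative depth of the libraries ranged from 0.3 to 1. No member was listed at 0 in any library.

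To show what these genes share besides their name, the sequence around their start sites was read from RefSeq (GRCm38.p6), from 250 bases before to 50 after the start. A window was held for 32 of the 43 matched genes. The ISRE was searched as GAAA, any 2 bases and GAAA again, and the GAS as TTC, any 3 bases and GAA, both on either strand. The GAS letters read the same on both strands, and matches of the same or of different motifs may overlap. The ISRE letters stood in 17 of the 32 genes (53.1%) against 3.99% of 27025 genes in the same table. The GAS letters stood in 8 of the 32 genes (25.0%) against 9.55%, and both motifs in 5 (15.6%) against 0.54%. At least 1 of the motifs stood in 20 of the 32 genes (62.5%) against 12.9%, and the rest of the 32, Irf7 among them, held neither. The windows of 6 genes, each of which holds a match, are printed in the direction of transcription, with the matched letters in capitals.

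Isg15 (chr4:156200769-156201068, reverse strand): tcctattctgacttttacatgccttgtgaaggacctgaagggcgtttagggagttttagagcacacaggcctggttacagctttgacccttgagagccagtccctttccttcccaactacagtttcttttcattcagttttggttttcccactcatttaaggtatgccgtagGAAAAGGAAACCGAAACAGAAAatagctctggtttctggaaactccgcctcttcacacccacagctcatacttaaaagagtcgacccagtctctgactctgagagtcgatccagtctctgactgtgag
Ifit1 (chr19:34640639-34640938, forward strand): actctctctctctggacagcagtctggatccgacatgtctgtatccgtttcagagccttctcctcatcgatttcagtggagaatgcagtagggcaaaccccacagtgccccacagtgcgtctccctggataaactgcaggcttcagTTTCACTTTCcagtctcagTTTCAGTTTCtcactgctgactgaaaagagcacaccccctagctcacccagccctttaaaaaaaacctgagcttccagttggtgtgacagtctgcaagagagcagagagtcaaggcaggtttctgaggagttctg
Gbp7 (chr3:142530086-142530385, forward strand): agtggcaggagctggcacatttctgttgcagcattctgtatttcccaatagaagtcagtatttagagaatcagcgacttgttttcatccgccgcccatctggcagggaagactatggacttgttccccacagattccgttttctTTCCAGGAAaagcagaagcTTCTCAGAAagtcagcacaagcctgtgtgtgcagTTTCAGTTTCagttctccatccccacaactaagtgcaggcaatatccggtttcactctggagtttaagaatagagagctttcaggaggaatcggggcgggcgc
Oas1a (chr5:120907476-120907775, reverse strand): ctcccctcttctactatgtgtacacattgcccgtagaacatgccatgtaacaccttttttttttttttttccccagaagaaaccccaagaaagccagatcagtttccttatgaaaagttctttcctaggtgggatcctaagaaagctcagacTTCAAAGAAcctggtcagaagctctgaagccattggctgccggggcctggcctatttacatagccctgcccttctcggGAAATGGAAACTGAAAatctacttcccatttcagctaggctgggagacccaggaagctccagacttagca
Bst2 (chr8:71537423-71537722, reverse strand): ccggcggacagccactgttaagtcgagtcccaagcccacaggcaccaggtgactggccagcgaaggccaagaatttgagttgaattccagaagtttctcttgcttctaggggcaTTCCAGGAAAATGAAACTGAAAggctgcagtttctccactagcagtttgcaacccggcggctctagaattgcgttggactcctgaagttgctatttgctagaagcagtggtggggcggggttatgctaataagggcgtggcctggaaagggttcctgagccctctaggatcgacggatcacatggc
Irf1 (chr11:53769764-53770063, forward strand): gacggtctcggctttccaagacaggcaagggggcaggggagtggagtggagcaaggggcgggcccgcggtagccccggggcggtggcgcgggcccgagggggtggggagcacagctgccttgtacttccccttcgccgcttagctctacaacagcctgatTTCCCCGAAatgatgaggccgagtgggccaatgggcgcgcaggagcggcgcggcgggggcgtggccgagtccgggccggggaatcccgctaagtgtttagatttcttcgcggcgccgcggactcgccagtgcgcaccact

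Isg15, which encodes a ubiquitin-like protein, carried 3 overlapping ISRE matches that start 78, 72 and 66 bases before the start site. Ifit1, whose product binds viral RNA that lacks host cap methylation, carried 2 ISRE matches on the opposite strand, 104 and 85 bases before the start. Gbp7 carried 1 ISRE match at 53 bases and 2 GAS matches at 106 and 87 bases before the start. In Oas1a 2 overlapping ISRE matches began 20 and 14 bases before the start and a GAS match 98 bases before it, and in Bst2 the GAS match ran into 2 overlapping ISRE matches. Irf1 had a GAS match 90 bases before the start and no ISRE letters in this window. A match is a description of the letters and not evidence of binding.

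Across all 24 libraries the interferon-stimulated genes separated the diets. The median over 42 loci of the deviation from each locus's mean, on the log2(FPKM + 1) scale, was below 0 in all 12 chow libraries, from -0.59 to -0.22, and above 0 in all 12 high fat libraries, from 0.1 to 0.7. High fat control was the highest group, with library medians of 0.53 to 0.7 and 25 of the 42 loci at their highest group mean there. High fat Jnk1Jnk2 held the highest mean of 11 loci, high fat Jnk2 of 5 and high fat Jnk1 of 1. The lowest group mean fell in chow Jnk1 at 19 loci and in chow Jnk1Jnk2 at 16, while Stat2 and Parp14 were lowest in high fat Jnk1Jnk2 in the values as deposited. For these medians and counts no value over all loci is given. They alone cannot tell a shift of all loci from one of these genes. Summed over the 42 loci, the members reached 301 to 425 FPKM in the chow libraries, 671 to 818 FPKM in high fat control, 548 to 599 FPKM in high fat Jnk1, 485 to 652 FPKM in high fat Jnk2 and 620 to 732 FPKM in high fat Jnk1Jnk2. These sums are as deposited and follow the most abundant members. Bst2 (792 bases) had a mean of 234 FPKM in high fat Jnk1Jnk2, 141 in high fat control, 113 in high fat Jnk1 and 142 in high fat Jnk2. With the length trend removed, Bst2 was not called higher in high fat Jnk1Jnk2 than in high fat control. The sums therefore do not rank the high fat groups for the set as a whole.

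**Figure D1:**
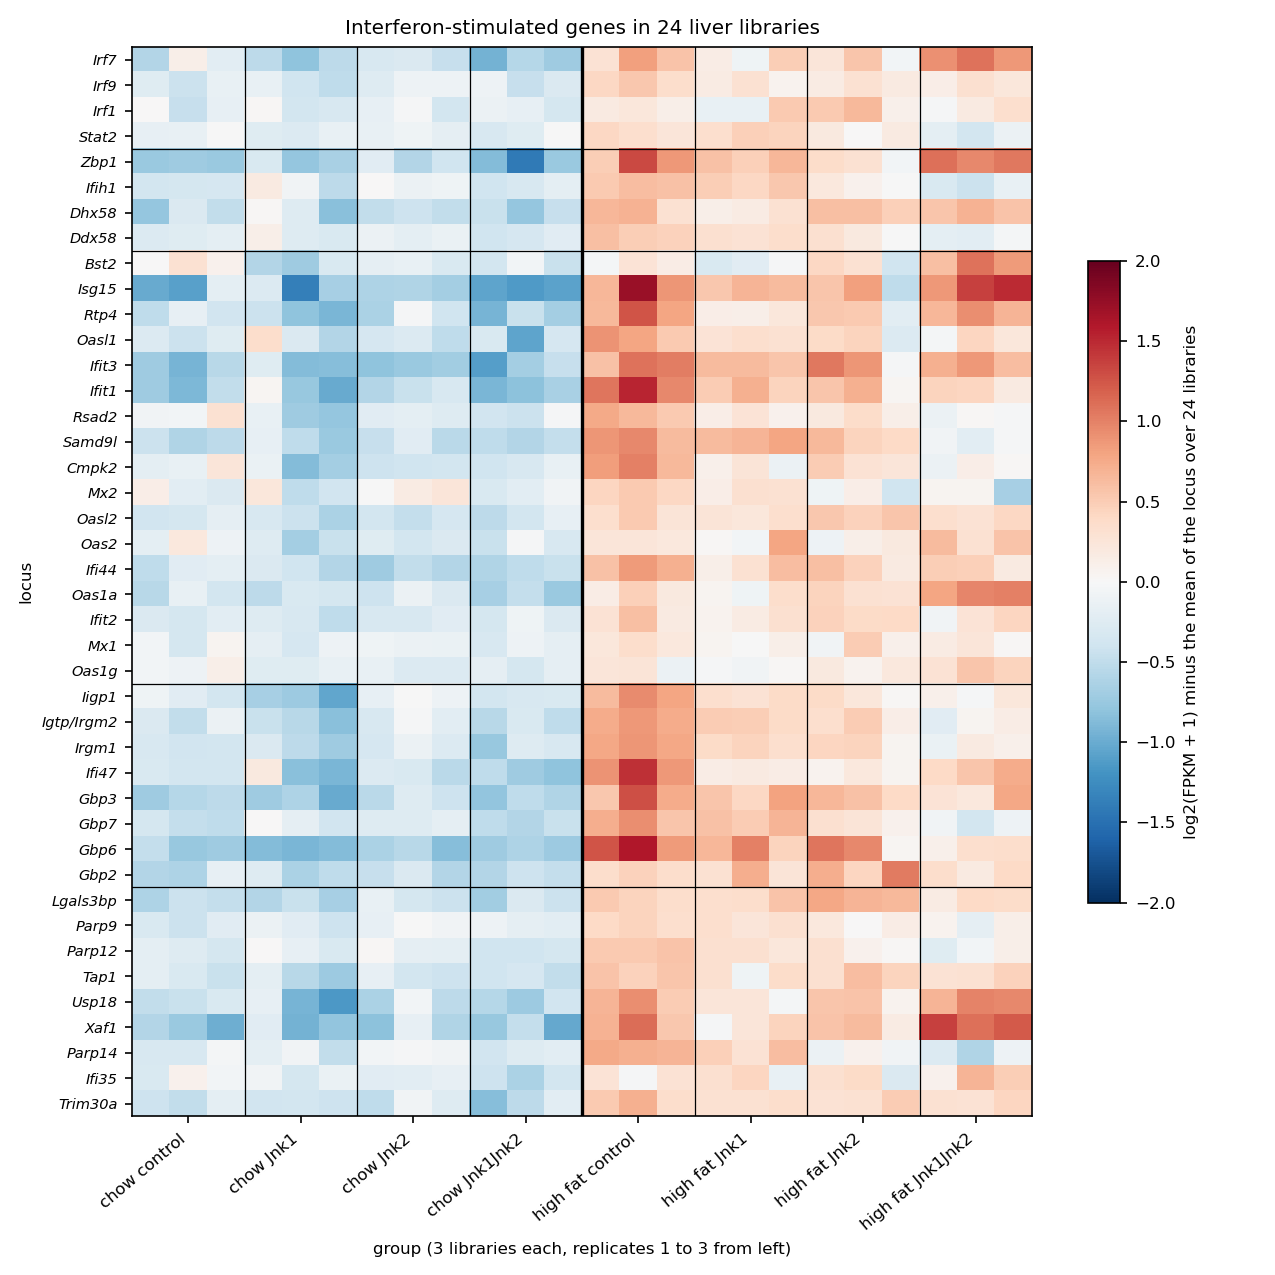
Each row is 1 of the 42 loci, grouped from the top as transcription factors, nucleic acid sensors, antiviral effectors, interferon-inducible GTPases, and regulators and others, and each column is 1 of the 24 libraries. Colour gives log2(FPKM + 1) minus the mean of the locus over 24 libraries, and a reader should see the change from blue to red at the diet boundary, with high fat control the reddest group and a mixed pattern in high fat Jnk1Jnk2.

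Single libraries stood apart within their groups. At 30 of the 42 loci high fat Jnk2 replicate 3 had the lowest value in its group, at 33 loci high fat control replicate 2 had the highest in its group, and at 32 loci chow Jnk1 replicate 1 did. No such count over all loci is given, so a shift of the whole library cannot be told from one of these genes. The correlation with length was 0.193 in high fat Jnk2 replicate 3 (others -0.14 and -0.248) and -0.03 in high fat control replicate 2 (0.343 and 0.204). In chow Jnk1 replicate 1 it was 0.0064, between the others (0.375 and -0.0242). Over all pairs of loci, the median Pearson correlation across 24 libraries was 0.759, and over deviations from the group means it was 0.291, with 83.3% of the 861 pairs above 0. These correlations describe libraries that share groups and depth. By its correlation with the median of the other loci over 24 libraries, Ifit1 was most like the whole set (0.965), followed by Gbp3 (0.964) and Gbp6 (0.957), and Bst2 (0.525) and Mx2 (0.517) were least like it.

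The members differed widely in level. The highest mean over all libraries, 135 FPKM, belonged to Bst2, which encodes tetherin, a protein that holds budding virus on the cell surface. Iigp1, a GTPase directed at parasite vacuoles, followed at 86.6 FPKM, then Lgals3bp, a secreted glycoprotein, at 37.6 FPKM, the Igtp/Irgm2 locus at 23.8 FPKM and the transcription factor gene Irf7 at 20.6 FPKM. Ifit2 (0.916 FPKM), Mx1 (0.655 FPKM) and Oas1g (0.337 FPKM) had means under 1 FPKM and were not tested. Their highest group means fell in high fat Jnk2, high fat control and high fat Jnk1Jnk2, and their lowest in chow groups. Mx1 is known to carry a deletion in C57BL/6J and related strains.

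Bst2 was at 129, 158 and 137 FPKM in chow control, and at 125, 156 and 142 FPKM in high fat control. It was at 85.2, 78.2 and 104 FPKM in chow Jnk1 and at 195, 275 and 232 FPKM in high fat Jnk1Jnk2. As deposited, the 3 high fat Jnk1Jnk2 libraries lay above the other 21, whose highest value was 171 FPKM in high fat Jnk2. With the length trend removed, Bst2 was not called higher in high fat Jnk1Jnk2 than in high fat control. Its deposited values were 171, 158 and 97.5 FPKM in high fat Jnk2, 104, 110 and 126 FPKM in high fat Jnk1 and 113, 116 and 104 FPKM in chow Jnk2. Irf7, which drives further interferon gene expression, was at 12.3, 20.6 and 16.2 FPKM in chow control and at 23.2, 34.2 and 28.4 FPKM in high fat control. It reached 36.3, 41.2 and 35.3 FPKM in high fat Jnk1Jnk2, above all 21 other libraries, and was at 9.35, 12.4 and 11.1 FPKM in chow Jnk1Jnk2. In the single knockouts on high fat it was at 21.0, 17.7 and 26.9 FPKM in Jnk1 and at 22.4, 28.1 and 18.1 FPKM in Jnk2.

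Iigp1 followed another order. It was highest in high fat control and was at 88.5, 81.0 and 96.2 FPKM in high fat Jnk1Jnk2 and at 63.2, 65.9 and 66.7 FPKM in chow Jnk1Jnk2, so that the high fat Jnk1Jnk2 libraries lay above the chow control libraries, at 77.8, 70.5 and 63.8 FPKM, and below the high fat control libraries. The Igtp/Irgm2 locus was at 18.2, 15.6 and 20.7 FPKM in chow control, 38.4, 42.0 and 38.1 FPKM in high fat control and 19.1, 23.4 and 24.9 FPKM in high fat Jnk1Jnk2, which lay below high fat control and overlapped chow control. It was at 28.7, 32.4 and 24.7 FPKM in high fat Jnk2, below all high fat control libraries and overlapping high fat Jnk1Jnk2.

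**Figure D2:**
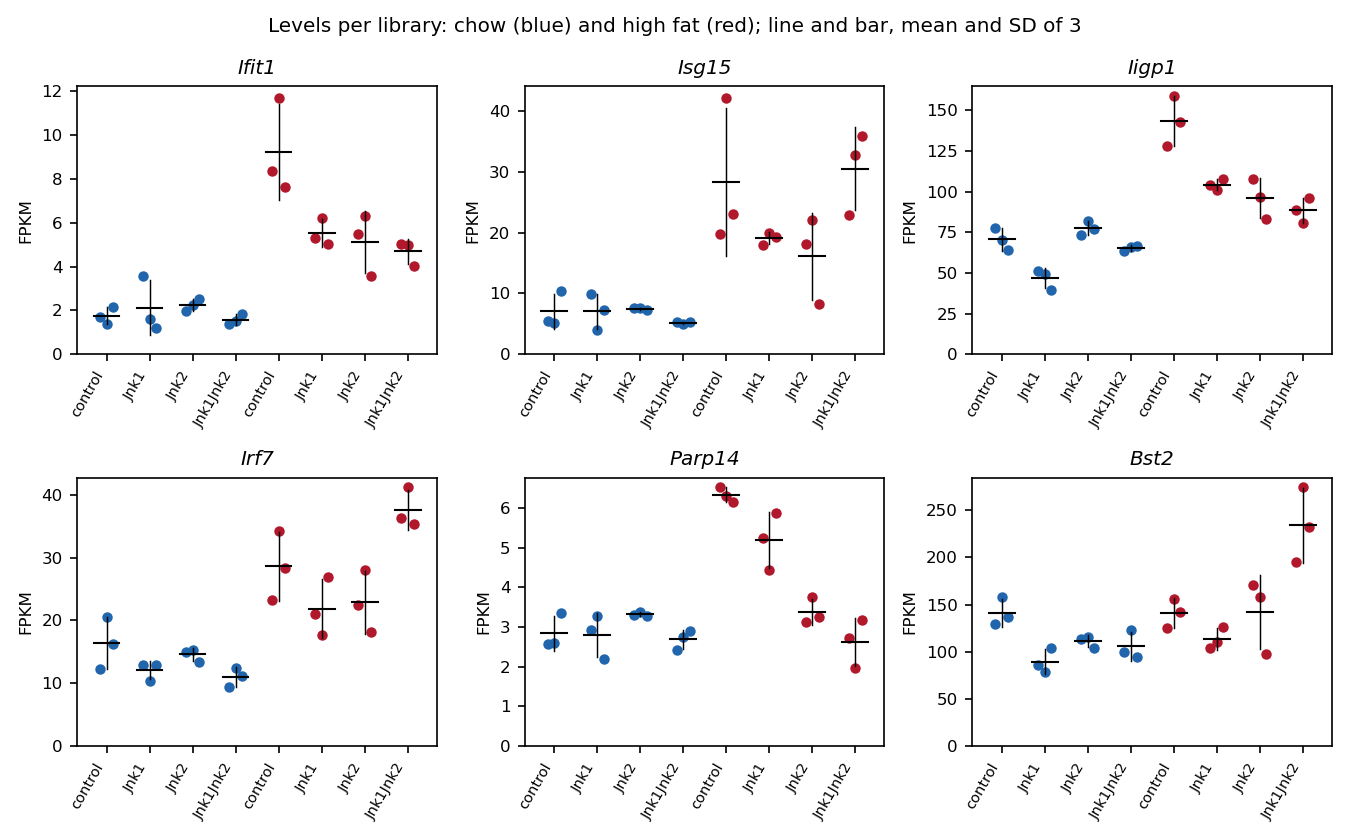
FPKM of 6 genes per library, by genotype, with chow in blue and high fat in red; lines and bars are the mean and SD of 3 libraries. In these values as deposited, Ifit1 and Iigp1 were highest in high fat control, and Irf7 and Bst2 were highest in high fat Jnk1Jnk2. Parp14, also as deposited, was near its chow level in high fat Jnk2 and in high fat Jnk1Jnk2. Against high fat control, Irf7 was not called in the values as deposited, and Bst2 was not called with the length trend removed.

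The first comparison asked how the high fat diet changed these genes in livers with both kinases. In control mice 35 of the 39 tested loci rose and none fell at an adjusted p under 0.05, against 10.1% of all 10562 tested loci higher and 6.19% lower. With the length trend removed 34 rose, against 9.74% of all loci. The median change was 0.94 on the log2(FPKM + 1) scale against 0.035 over all tested loci. At 37 of the 39 loci all 3 high fat libraries lay above all 3 chow libraries, against 21.0% of all tested loci.

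Among antiviral effectors 12 of 14 rose in control mice. Ifit1 was at 1.71, 1.39 and 2.16 FPKM on chow and at 8.36, 11.7 and 7.63 FPKM on high fat, a change of 1.88 ± 0.21 (SE, adjusted p = 1.64e-05). Isg15 was at 5.48, 5.18 and 10.4 FPKM on chow and at 19.7, 42.2 and 23.1 FPKM on high fat, a change of 1.85 ± 0.32 (adjusted p = 0.000808). Samd9l, a restriction factor of poxviruses, rose from 1.42, 1.13 and 1.25 FPKM to 5.0, 5.31 and 4.01 FPKM and had the smallest p of all members (change 1.34 ± 0.13, adjusted p = 3.16e-06). For each of these 3 genes the diets did not overlap, and the high fat libraries of Isg15 were spread widest, with replicate 2 far above the others. Ifit3 (1.64 ± 0.23) and Rtp4 (1.25 ± 0.20) rose as well. Oas2 (0.26, adjusted p = 0.352) and Bst2 (-0.0, adjusted p = 1.0) were the effectors that did not pass.

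All 8 GTPase loci rose in control mice, with a median change of 1.18. Gbp6, with Gbp10 at the same locus, was at 0.853, 0.519 and 0.569 FPKM on chow and at 5.18, 6.82 and 3.64 FPKM on high fat, and its change of 1.89 ± 0.22 was the highest of the set. Gbp7, a guanylate-binding protein gene, was at 1.26, 1.07 and 1.03 FPKM on chow and at 3.79, 4.53 and 3.24 FPKM on high fat (change 1.19 ± 0.11, adjusted p = 3.7e-06). Iigp1 was at 77.8, 70.5 and 63.8 FPKM and then at 128, 159 and 143 FPKM (change 1.01 ± 0.11, adjusted p = 1.45e-05). Low and abundant GTPase genes thus moved in the same direction, and in none of the 3 did the diets overlap.

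All 4 sensors of nucleic acid rose as well, which are the RNA helicase genes Ddx58 (RIG-I), Ifih1 (MDA5) and Dhx58 (LGP2), and Zbp1, whose product binds left-handed nucleic acid and can start cell death. Zbp1 was at 3.91, 4.01 and 3.86 FPKM on chow and at 10.5, 19.4 and 13.9 FPKM on high fat, a change of 1.62 ± 0.18 (adjusted p = 1.58e-05). Of the transcription factors Irf7 (0.78), Irf9 (0.71) and Stat2 (0.44) rose, and Irf1 had a change of 0.38 (adjusted p = 0.149). Among the other members 8 of 9 rose. Lgals3bp, with the smallest p of these, was at 22.7, 25.9 and 25.1 FPKM on chow and at 51.5, 48.5 and 45.7 FPKM on high fat (0.96 ± 0.11, adjusted p = 1.45e-05). Usp18, a protease that removes ISG15 from proteins, rose by 1.12 ± 0.20, the ubiquitin ligase gene Trim30a by 0.90 ± 0.14 and the peptide transporter gene Tap1 by 0.85 ± 0.13. Ifi35 did not pass (0.27, adjusted p = 0.339). The call of Mx2 (0.58 ± 0.19, adjusted p = 0.0454) held in 1 of 6 fits that each left out 1 library and was lost with size factors (adjusted p = 0.0762) and with the length trend removed (0.0636).

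Markers of macrophages moved with the diet beside these genes. Of 12 macrophage and Kupffer cell markers 8 rose in control mice and none fell, against 10.1% of all tested loci higher and 6.19% lower. Their summed level was 177 to 266 FPKM on chow and 313 to 380 FPKM on high fat. After removal of the length trend 4 of 11 rose, against 9.74% of all loci. All 11 T and NK cell markers had means under 1 FPKM and were not tested; their sum was 2.08 to 3.10 FPKM on chow and 3.61 to 5.53 FPKM on high fat. The 8 hepatocyte marker loci, of 7 genes, summed to 18700 to 50300 FPKM. Of these genes Alb was listed at 0 in 4 libraries and between 15200 and 28500 FPKM in the others, and Serpina1a was listed at 0 in 7 chow libraries and between 1730 and 2370 FPKM in the others, so a listed 0 in this table is no measure of a low level. The part of the macrophage markers in the rise of the interferon-stimulated genes was not tested.

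The same diet comparison was made within each knockout genotype. In Jnk1 mice 34 of 39 loci rose and none fell, against 9.22% and 5.81% of all tested loci, with a median change of 0.71 against 0.037. The diets did not overlap at 33 members, all higher, against 20.4% of all tested loci. Iigp1 led by p, from 51.3, 49.3 and 39.6 FPKM on chow to 104, 101 and 108 FPKM on high fat (1.15 ± 0.11, adjusted p = 3.7e-06). The Igtp/Irgm2 locus, whose genes encode GTPases of parasite defence, was at 16.2, 14.9 and 12.2 FPKM and then at 32.3, 32.1 and 29.5 FPKM (1.07 ± 0.13, adjusted p = 2.33e-05). The diets did not overlap at either locus, and the members without a call were Irf1, Oasl1, Mx2, Ifi35 and Bst2. Samd9l was at 1.9, 1.29 and 0.946 FPKM on chow and 4.03, 4.2 and 4.62 FPKM on high fat (1.17 ± 0.13, adjusted p = 1e-05), and Gbp3 was at 1.0, 1.12 and 0.626 FPKM and then at 3.79, 3.34 and 4.69 FPKM (1.37 ± 0.17, adjusted p = 4.51e-05). Lgals3bp was at 23.2, 25.6 and 21.9 FPKM and then at 45.0, 45.5 and 52.8 FPKM (0.99 ± 0.11, adjusted p = 9.26e-06). Macrophage markers were called higher at 4 of 12, with sums of 201 to 318 FPKM on chow and 263 to 424 FPKM on high fat, which overlap. Sums did not overlap for neutrophil markers (11.9 to 25.1 FPKM and then 54.1 to 190 FPKM) and erythroid markers (104 to 157 FPKM and then 160 to 189 FPKM). The part of these cells was not tested.

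In Jnk2 mice 28 of 39 loci rose and none fell, against 19.7% and 6.39% of all tested loci, and the median change was 0.61 against 0.10 over all loci. At 33 members the high fat libraries all lay above the chow libraries, against 29.4% of all tested loci. Lgals3bp was at 31.7, 27.4 and 26.1 FPKM on chow and at 61.3, 57.3 and 55.8 FPKM on high fat (1.01 ± 0.11, adjusted p = 6.3e-06). Oasl2, an oligoadenylate synthetase-like gene, was at 0.757, 0.613 and 0.796 FPKM and then at 2.27, 2.12 and 2.32 FPKM (0.91 ± 0.11, adjusted p = 2.12e-05). Gbp2 was at 1.05, 1.3 and 0.88 FPKM and then at 3.66, 2.79 and 4.81 FPKM (1.18 ± 0.16, adjusted p = 5.5e-05). These genes separated the diets, as did Samd9l, at 1.35, 1.76 and 1.24 FPKM and then at 4.08, 3.41 and 3.29 FPKM (0.91 ± 0.13, adjusted p = 7.44e-05), and Ifi44, at 0.211, 0.399 and 0.323 FPKM and then at 1.99, 1.73 and 1.24 FPKM (1.01 ± 0.15, adjusted p = 0.000105). Parp14, a mono-ADP-ribosyltransferase gene, had a change of 0.01 (adjusted p = 0.954) and Ifih1 one of 0.17 (adjusted p = 0.326), and Ifi47, Iigp1, Parp9 and Parp12 were also not called. The count was 20 with size factors and 19 with the length trend removed, against 12.1% of all loci under the latter, and size factors moved the median of all loci from 0.10 to -0.033. Macrophage markers were called higher at 10 of 12, with sums of 169 to 224 FPKM on chow and 333 to 472 FPKM on high fat, and at 8 of 11 with the length trend removed. Stellate cell markers were higher at 6 of 7 (sums of 132 to 153 FPKM and then 229 to 261 FPKM) and sinusoidal endothelial markers at 6 of 8 (72.0 to 79.5 FPKM and then 115 to 122 FPKM). Sums also separated the diets for T and NK cell markers (1.44 to 2.87 and then 3.78 to 7.81 FPKM) and B cell markers (1.85 to 2.94 and then 3.49 to 4.2 FPKM). The same held for erythroid markers (170 to 222 and then 231 to 487 FPKM) and hepatocyte markers (20500 to 40500 and then 43700 to 47500 FPKM). The part of these cells was not tested.

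In Jnk1Jnk2 mice 30 of 39 loci rose and none fell, against 30.1% and 26.8% of all tested loci, and the median change was 0.77 against 0.032. All high fat libraries lay above all chow libraries at 33 members, against 32.2% of all tested loci. Oas1a, whose product makes the oligoadenylates that activate RNase L, was at 0.199, 0.373 and 0.144 FPKM on chow and at 2.29, 2.73 and 2.84 FPKM on high fat (1.55 ± 0.14, adjusted p = 3.19e-07). Zbp1 was at 3.5, 2.08 and 3.91 FPKM and then at 16.5, 14.9 and 15.9 FPKM (2.04 ± 0.18, adjusted p = 3.19e-07). Xaf1, a gene linked to cell death, was at 2.27, 3.0 and 1.74 FPKM and then at 13.4, 10.9 and 12.0 FPKM (1.99 ± 0.21, adjusted p = 1.12e-06). These genes and Irf7 (1.70 ± 0.18, adjusted p = 1.4e-06) separated the diets in every library, and with the length trend removed the changes were 1.19 for Oas1a, 2.02 for Zbp1, 1.82 for Xaf1 and 1.67 for Irf7, all called. Lgals3bp was at 21.5, 28.8 and 26.0 FPKM and then at 39.8, 46.8 and 45.8 FPKM (0.78 ± 0.11, adjusted p = 1.02e-05; 0.54 with the length trend removed, adjusted p = 0.000333). Bst2 rose by 1.14 ± 0.18 (adjusted p = 3.43e-05), and its change was 0.44 (adjusted p = 0.0303) with the length trend removed. The change was near 0 for Ifih1 (0.01), Mx2 (0.00), Stat2 (-0.04) and Parp14 (-0.04), and Irf1, Rsad2, Ddx58, Parp9 and Cmpk2 were the other members without a call. When the length trend was removed 28 of the 30 kept their call, Ifih1 and Parp14 gained one, and the count stayed at 30, against 20.2% of all loci. Macrophage markers were called higher at 10 of 12, with sums of 171 to 198 FPKM on chow and 481 to 505 FPKM on high fat, and at 8 of 11 with the length trend removed. On chow and then on high fat, sinusoidal endothelial markers summed to 67.5 to 74.4 and 101 to 121 FPKM, stellate cell markers to 148 to 168 and 193 to 239 FPKM, and T and NK cell markers to 2.60 to 3.07 and 5.83 to 6.39 FPKM. None of these sums overlapped between the diets, 2 of 3 neutrophil markers were called higher (0 of 3 after removal of the length trend), and the part of these cells was not tested.

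**Figure D3:**
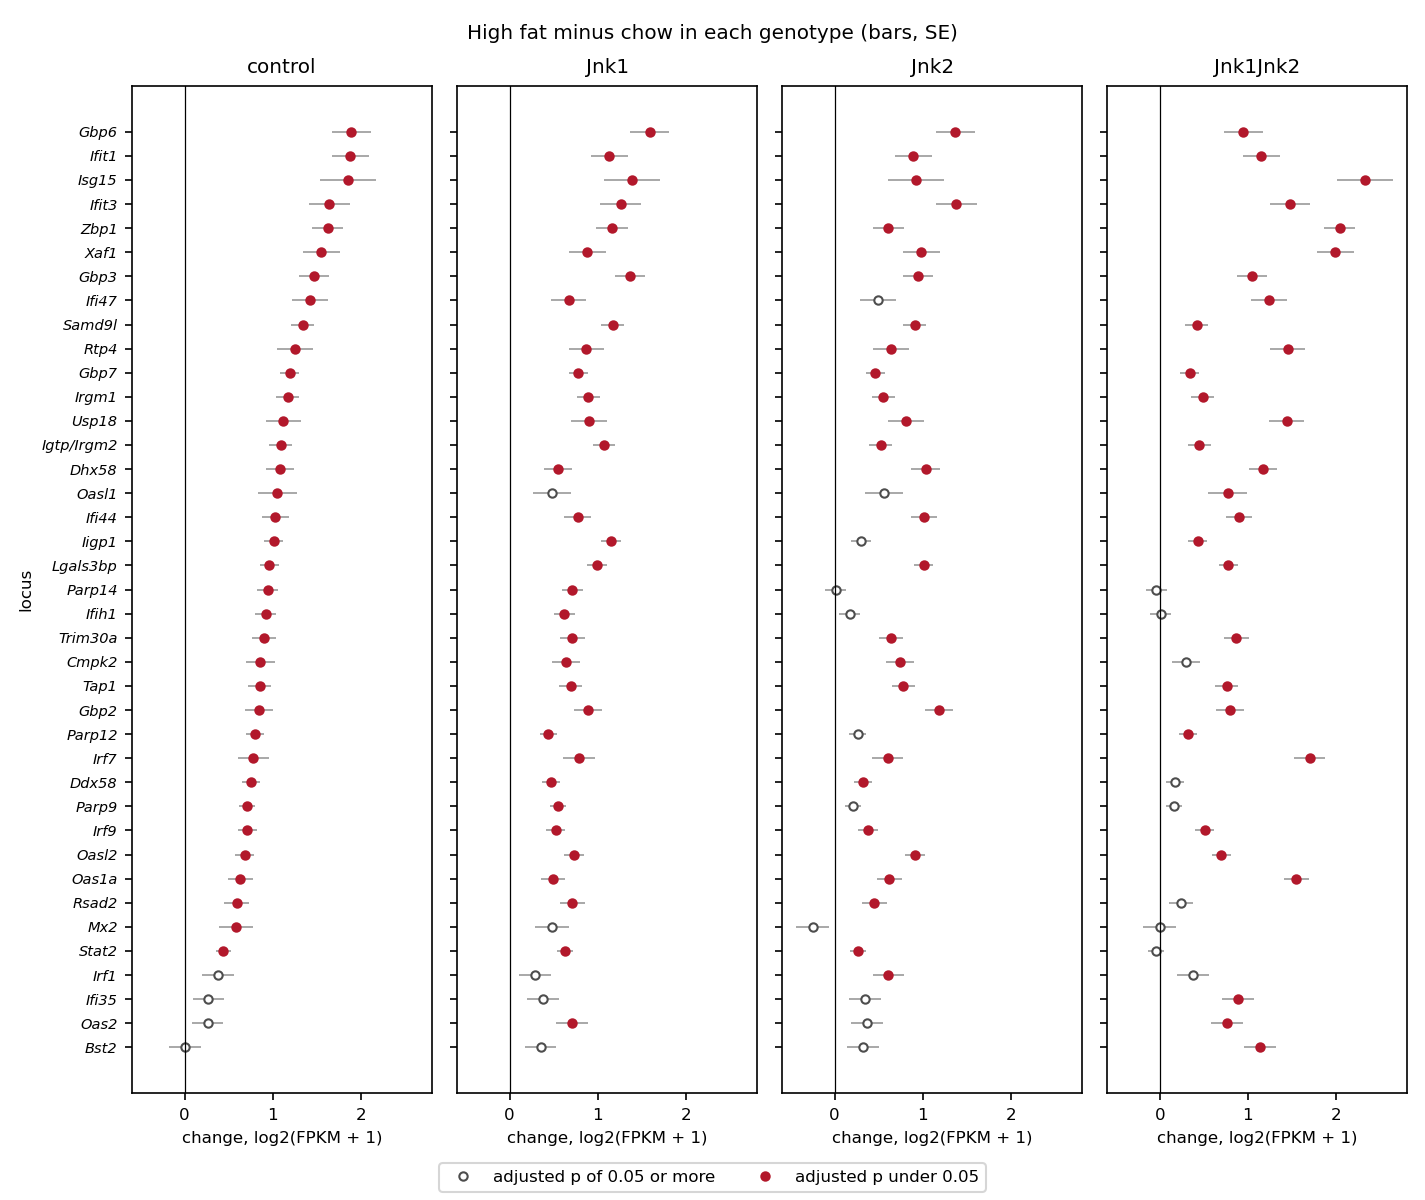
Change from chow to high fat of 39 loci in each genotype, as a difference of log2(FPKM + 1) with its SE, ordered by the change in control; red points had an adjusted p under 0.05. Of the 39 loci 35, 34, 28 and 30 were called in control, Jnk1, Jnk2 and Jnk1Jnk2, all of them higher.

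The other genes of the pathway were read from lists that hold no member. Of 9 loci of interferon genes themselves 6 were listed at 0 in every library, which in this table does not show that they were absent. Ifnb1, Ifng and Ifnk had means of 0.00832, 0.0292 and 0.0373 FPKM, and the summed level of the 9 loci reached at most 0.308 FPKM in a chow Jnk1Jnk2 library. Of the 5 tested receptor genes none was called in control mice between the diets (median change 0.01). Ifnar1, the first chain of the type I receptor, had means of 8.03 ± 0.139 (SD, n = 3) and 7.93 ± 0.881 FPKM, and Ifnar2, the second chain, 63.0 ± 3.0 and 54.8 ± 6.7 FPKM. Ifngr1 and Ifngr2, the chains of the interferon gamma receptor, had means of 7.43 ± 0.551 and 8.55 ± 0.84 FPKM and of 11.7 ± 0.887 and 11.8 ± 0.956 FPKM. Il10rb, a chain of the type III receptor, had means of 3.88 ± 0.522 and 5.32 ± 0.442 FPKM (adjusted p = 0.111).

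Receptor genes were called in Jnk2 and in Jnk1Jnk2 mice, where many other loci were called too. In Jnk2 mice Ifngr2 (0.71 ± 0.12), Ifngr1 (0.62 ± 0.12) and Il10rb (0.76 ± 0.16) rose with the high fat diet, against 19.7% of all tested loci. In Jnk1Jnk2 mice Ifngr2 (0.79 ± 0.12), Il10rb (0.62 ± 0.16) and Ifngr1 (0.36 ± 0.12) rose and Ifnar1 fell by 0.25. Of all tested loci 30.1% rose and 26.8% fell there, and 20.2% rose after removal of the length trend. With the length trend removed Ifngr2 (0.83) and Il10rb (0.51) were still called, and Ifngr1 (0.06, adjusted p = 0.655) and Ifnar1 (-0.19, adjusted p = 0.0849) did not pass in that comparison. Against high fat control, Ifngr2 was higher in high fat Jnk1Jnk2 by 0.68 ± 0.12 (0.85 with the length trend removed), with values of 18.5, 19.8 and 20.0 FPKM against 12.0, 10.8 and 12.7 FPKM. Ifnar1 was at 5.67, 5.56 and 5.67 FPKM in high fat Jnk1Jnk2 and at 8.1, 6.98 and 8.72 FPKM in high fat control, and fell by 0.43 (0.23 with the length trend removed, adjusted p = 0.0476). In this comparison 19.6% of all tested loci were higher and 31.6% lower, and 18.0% and 18.9% with the length trend removed.

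Of the 8 JAK, STAT and IRF genes in the list 1 was higher and 5 were lower in high fat Jnk1Jnk2 than in high fat control, where 19.6% of all tested loci were higher and 31.6% lower, and those lower included Jak1 (-0.80 ± 0.12), Jak2 (-0.54 ± 0.10) and Tyk2 (-0.47 ± 0.10), kinases bound to the receptors. With the length trend removed 1 was higher and 4 lower, against 18.0% and 18.9% of all loci; Jak1 (-0.46) and Jak2 (-0.19, adjusted p = 0.0461) passed and Tyk2 (-0.15, adjusted p = 0.112) did not.

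Among 28 tested genes from a further list of interferon-induced genes, 18 rose with the diet in control mice, 13 in Jnk1, 15 in Jnk2 and 20 in Jnk1Jnk2 mice, where 1 fell, against 10.1%, 9.22%, 19.7% and 30.1% of all tested loci higher. After removal of the length trend 9 rose in Jnk2 and 14 in Jnk1Jnk2 mice, against 12.1% and 20.2% of all loci. In control mice these included Herc6 (1.22 ± 0.16), Dtx3l (0.71 ± 0.09) and the chemokine gene Cxcl10 (1.35 ± 0.21). Of 12 genes for MHC class I presentation and the immunoproteasome 7 rose in control mice and none fell, and the 3 highest changes belonged to Psmb9 (1.54 ± 0.24), Psmb10 (0.90 ± 0.18) and Psmb8 (0.88 ± 0.17), which encode inducible catalytic subunits. Of 9 tested adaptors and kinases of nucleic acid sensing, Ikbke (0.58 ± 0.12) and Tlr3 (0.51 ± 0.13) rose in control mice. Of 9 negative regulators Samhd1 (0.79 ± 0.09), Adar (0.34 ± 0.10) and Ptpn6 (0.33 ± 0.11) rose. In high fat Jnk1Jnk2 against high fat control 7 of the 9 adaptors and kinases were lower, against 31.6% of all tested loci, and 4 were with the length trend removed, against 18.9%.

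On chow few of the interferon-stimulated genes differed between genotypes. In chow Jnk1 against chow control 2 of 39 were lower and none higher, against 1.21% and 0.985% of all tested loci. Iigp1 was at 51.3, 49.3 and 39.6 FPKM against 77.8, 70.5 and 63.8 FPKM and fell by 0.59 ± 0.11 (adjusted p = 0.00819), and the groups did not overlap. Rsad2, which encodes viperin, an enzyme that makes a chain-terminating nucleotide, was at 2.77, 1.54 and 1.45 FPKM against 2.96, 3.03 and 4.13 FPKM and fell by 0.60 ± 0.14 (adjusted p = 0.0299). Bst2 had a change of -0.66 ± 0.18 that did not pass (adjusted p = 0.0555). The count ranged from 0, without chow control replicate 1, to 3, without chow Jnk1 replicate 1 or replicate 3, and it was 1 without chow control replicate 2, chow control replicate 3 or chow Jnk1 replicate 2, and the call of Iigp1 held in 5 and that of Rsad2 in 1 of these 6 fits. With the length trend removed 3 were lower, against 1.94% of all loci, and the added one was Bst2 (-0.76, adjusted p = 0.0105).

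No member was called in chow Jnk2 or in chow Jnk1Jnk2 against chow control by limma, where 0.454% and 0.161% of all tested loci were called, and at an unadjusted p under 0.05 there were 3 and 4 members of 39, against 13.2% and 12.6% of all tested loci. In chow Jnk2 the smallest p-values belonged to Parp9, at 12.2, 13.7 and 13.1 FPKM against 11.0, 10.0 and 11.7 FPKM (0.23 ± 0.09, adjusted p = 0.269), and to Ifih1, at 4.67, 4.2 and 4.31 FPKM against 3.4, 3.44 and 3.49 FPKM (0.28 ± 0.12, adjusted p = 0.327). Cmpk2, a mitochondrial nucleotide kinase gene, was at 1.17, 1.19 and 1.25 FPKM against 1.54, 1.62 and 2.42 FPKM (-0.36 ± 0.16, adjusted p = 0.333). In chow Jnk1Jnk2 the smallest belonged to Irf7 (-0.52 ± 0.18, adjusted p = 0.268), to Bst2, at 99.4, 123 and 94.1 FPKM (-0.42 ± 0.18, adjusted p = 0.323), and to Rsad2, at 2.2, 2.09 and 3.09 FPKM (-0.34 ± 0.14, adjusted p = 0.328).

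On the high fat diet the knockout groups were compared with the same 3 high fat control libraries, so these comparisons share their controls. In high fat Jnk1 no member was called, against 0.227% of all tested loci in either direction, although 16 of 39 members had an unadjusted p under 0.05, against 11.9% of all tested loci. Of the 39 changes 35 were below 0 and the median was -0.29 against 0.003 over all loci. At 19 members all 3 Jnk1 libraries lay below all 3 control libraries, against 10.0% of all tested loci. Cmpk2 was at 2.1, 2.45 and 1.66 FPKM against 4.19, 4.81 and 3.55 FPKM in high fat control (-0.76 ± 0.16, adjusted p = 0.0533). Ifi47, a GTPase gene, was at 11.9, 12.2 and 12.0 FPKM against 20.7, 31.3 and 20.3 FPKM (-0.92 ± 0.20, adjusted p = 0.061), and Iigp1 was at 104, 101 and 108 FPKM against 128, 159 and 143 FPKM (-0.45 ± 0.11, adjusted p = 0.089). None of these 3 genes overlapped between the groups. With size factors Cmpk2 (adjusted p = 0.0437) and Ifi47 (0.0492) passed, and with the length trend removed Cmpk2 passed (0.0489), against 0.159% of all loci lower; without high fat control replicate 3 there was 1 call.

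In high fat Jnk2 12 of 39 members were lower than in high fat control and none was higher, against 4.96% of all tested loci lower and 7.45% higher. The median change was -0.33 against 0.022 over all loci, and at 20 members the Jnk2 libraries all lay below the control libraries, against 11.1% of all tested loci. The 12 were 5 of 8 GTPase loci (Ifi47, Igtp/Irgm2, Irgm1, Gbp7 and Iigp1), the sensors Ddx58, Ifih1 and Zbp1, the effectors Ifit1 and Cmpk2, and Parp12 and Parp14. Parp14 was at 3.13, 3.75 and 3.25 FPKM against 6.55, 6.32 and 6.17 FPKM and fell by 0.75 ± 0.12 (adjusted p = 0.000658). Iigp1 was at 108, 96.6 and 83.3 FPKM against 128, 159 and 143 FPKM and fell by 0.58 ± 0.11 (adjusted p = 0.00249). The level of Parp14 in high fat Jnk2 lay within the range of its chow libraries, 2.19 to 3.39 FPKM, in 2 of 3 libraries.

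Ifi47 was at 11.3, 12.5 and 11.2 FPKM in high fat Jnk2 against 20.7, 31.3 and 20.3 FPKM in high fat control (-0.96 ± 0.20, adjusted p = 0.00452). Gbp7 was at 2.59, 2.46 and 2.08 FPKM against 3.79, 4.53 and 3.24 FPKM (-0.52 ± 0.11, adjusted p = 0.00549), and Ifih1 was at 5.5, 5.01 and 4.64 FPKM against 7.11, 7.69 and 7.47 FPKM (-0.48 ± 0.12, adjusted p = 0.0125). The groups did not overlap for these 5 genes, and their calls held with each library left out. The call of Cmpk2 (adjusted p = 0.0492) held in 1 of 6 such fits, and the whole count was 6 without high fat control replicate 2 and 5 without high fat Jnk2 replicate 3, the library that was lowest of its group at most members. With the length trend removed 16 were lower, among them all 12, against 6.38% of all loci. Of 8 sinusoidal endothelial markers 7 were higher in high fat Jnk2, with sums of 115 to 122 FPKM against 77.5 to 80.3 FPKM, and 1 of 12 macrophage markers was higher. Of all tested loci 7.45% were higher there. Sums stood apart from high fat control for stellate cell markers as well, with 4 of 7 called higher (229 to 261 against 149 to 205 FPKM), for erythroid markers, with 2 of 4 higher (231 to 487 against 128 to 226 FPKM), for cholangiocyte markers (2.71 to 5.85 against 2.01 to 2.69 FPKM), for the hepatocyte markers (43700 to 47500 against 35700 to 43300 FPKM) and, in the lower direction, for neutrophil markers (16.4 to 24.4 against 28.1 to 91.3 FPKM). For such sums no count over all loci is given. The part of these markers in the lower levels of the members was not tested.

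In high fat Jnk1Jnk2 18 of 39 members were lower than in high fat control and 2 were higher, against 31.6% of all tested loci lower and 19.6% higher. In both directions together 51.3% of the members were called, against 51.2% of all tested loci, so the share called was that of the background and the direction was mostly lower. All 3 Jnk1Jnk2 libraries lay below all 3 control libraries at 21 members and above them at 4, against 32.7% and 19.7% of all tested loci. The median change was -0.33 against -0.074 over all loci. By role, 7 of 8 GTPase loci were lower with a median of -0.72, Gbp2 being the exception, and among 14 antiviral effectors 5 were lower and 2 higher with a median of -0.25. The median was below 0 in each role, and no difference between roles was tested. The sensors Ifih1 and Ddx58 were lower, Stat2 was lower among the transcription factors, and Parp9, Parp12 and Parp14 were lower among the others. Oas1a and Bst2 were higher.

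Parp14 was at 2.72, 1.96 and 3.18 FPKM in high fat Jnk1Jnk2 against 6.55, 6.32 and 6.17 FPKM in high fat control (-1.04 ± 0.12, adjusted p = 3.32e-06). Gbp7 was at 1.76, 1.24 and 1.69 FPKM against 3.79, 4.53 and 3.24 FPKM (-0.92 ± 0.11, adjusted p = 4.57e-06), and Samd9l was at 2.08, 1.8 and 2.21 FPKM against 5.0, 5.31 and 4.01 FPKM (-0.93 ± 0.13, adjusted p = 1.08e-05). For these genes each Jnk1Jnk2 library was lower than each control library. Ifih1 was at 3.59, 3.19 and 4.07 FPKM against 7.11, 7.69 and 7.47 FPKM (-0.87 ± 0.12, adjusted p = 1.13e-05), and Ddx58 was at 3.91, 3.88 and 4.5 FPKM against 7.52, 6.95 and 6.79 FPKM (-0.67 ± 0.10, adjusted p = 2.18e-05). In chow control these helicase genes were at 3.4, 3.44 and 3.49 FPKM and at 3.69, 3.79 and 3.95 FPKM. The deposited levels in high fat Jnk1Jnk2 are close to these, but after removal of the length trend Ifih1 was higher on high fat than on chow in Jnk1Jnk2 mice by 0.32 (adjusted p = 0.0339), while Ddx58 had a change of 0.23 (adjusted p = 0.0542). Oas1a was at 2.29, 2.73 and 2.84 FPKM against 1.12, 1.64 and 1.18 FPKM (0.65 ± 0.14, adjusted p = 0.000737).

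**Figure D4:**
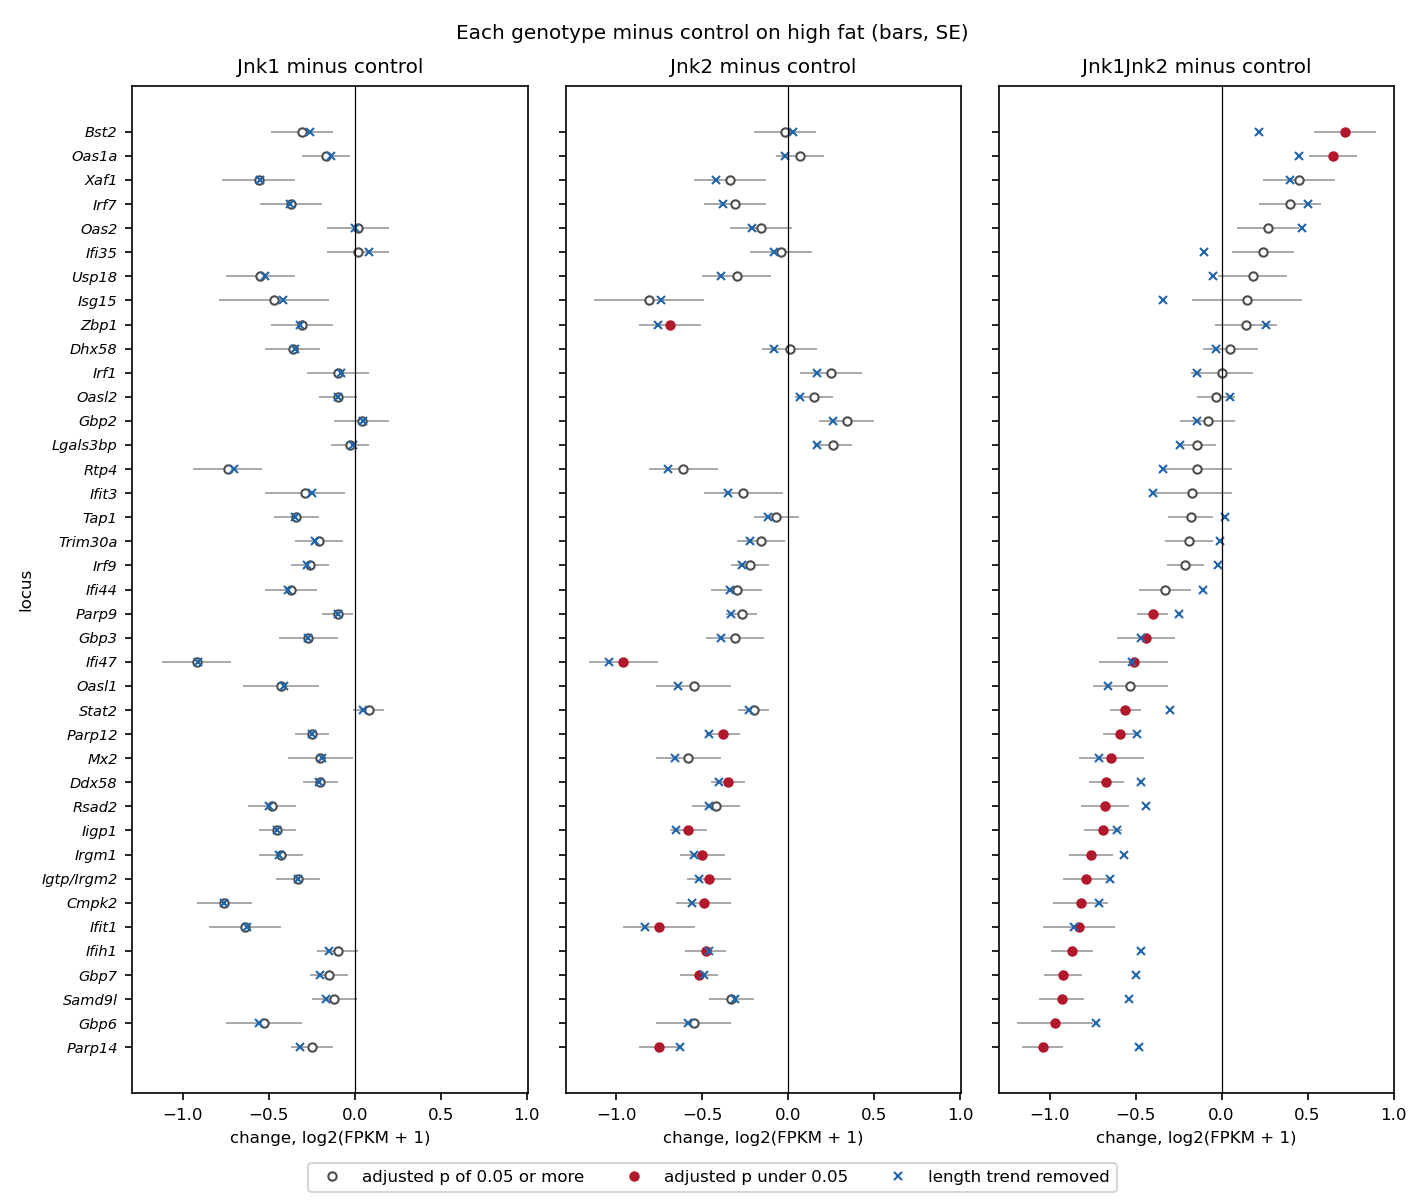
Change of each knockout group from control on the high fat diet for 39 loci, as a difference of log2(FPKM + 1) with its SE, ordered by the Jnk1Jnk2 comparison; red points had an adjusted p under 0.05 and crosses give the change with the length trend removed. No locus was called in Jnk1, 12 were called lower in Jnk2, and 18 lower and 2 higher in Jnk1Jnk2, where the crosses lie closer to 0 for the genes at both ends.

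Transcript length moved with these changes. Across the 39 members the Spearman correlation of change with length was -0.641 in high fat Jnk1Jnk2 against control, -0.19 in high fat Jnk2 and 0.172 in high fat Jnk1, as a description over genes that are not independent. The 10 longest members had a median change of -0.78 and the 10 shortest one of 0.08 in the Jnk1Jnk2 comparison. Parp14 has a longest annotated transcript of 7417 bases, Gbp7 of 5614 and Ifih1 of 5470, while Isg15 has 756 bases and Bst2 792.

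With the length trend removed the correlation was -0.191, and the medians of the longest and the shortest 10 were -0.45 and -0.19. All 18 lower members stayed lower at smaller sizes for the long genes, with Parp14 at -0.48 (adjusted p = 0.00141), Gbp7 at -0.50 (0.0045), Samd9l at -0.54 (0.00332), Ifih1 at -0.47 (0.00433) and Ddx58 at -0.47 (0.000756). Of the 2 higher members Oas1a stayed (0.45, adjusted p = 0.0116) and Bst2 did not (0.22, adjusted p = 0.278). Irf7 (0.50) and Oas2 (0.47) passed as higher and Oasl1 (-0.66) as lower under this setting alone of these 2, giving 3 higher and 19 lower against 18.0% and 18.9% of all tested loci with a length. Size factors gave 4 higher and 16 lower, with Gbp3 (adjusted p = 0.0853) and Ifi47 (0.101) no longer called, and each of these calls held in 3 of 6 fits that left out 1 library. Of the 12 macrophage markers 6 were higher in high fat Jnk1Jnk2, against 19.6% of all tested loci, with sums of 481 to 505 FPKM against 313 to 380 FPKM. With the length trend removed 1 of 11 was higher. Of 8 sinusoidal endothelial markers 3 were higher and 2 lower (101 to 121 against 77.5 to 80.3 FPKM), and 3 were higher with the length trend removed, and the untested T and NK cell markers summed to 5.83 to 6.39 against 3.61 to 5.53 FPKM. The part of these markers was not tested.

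**Figure D5:**
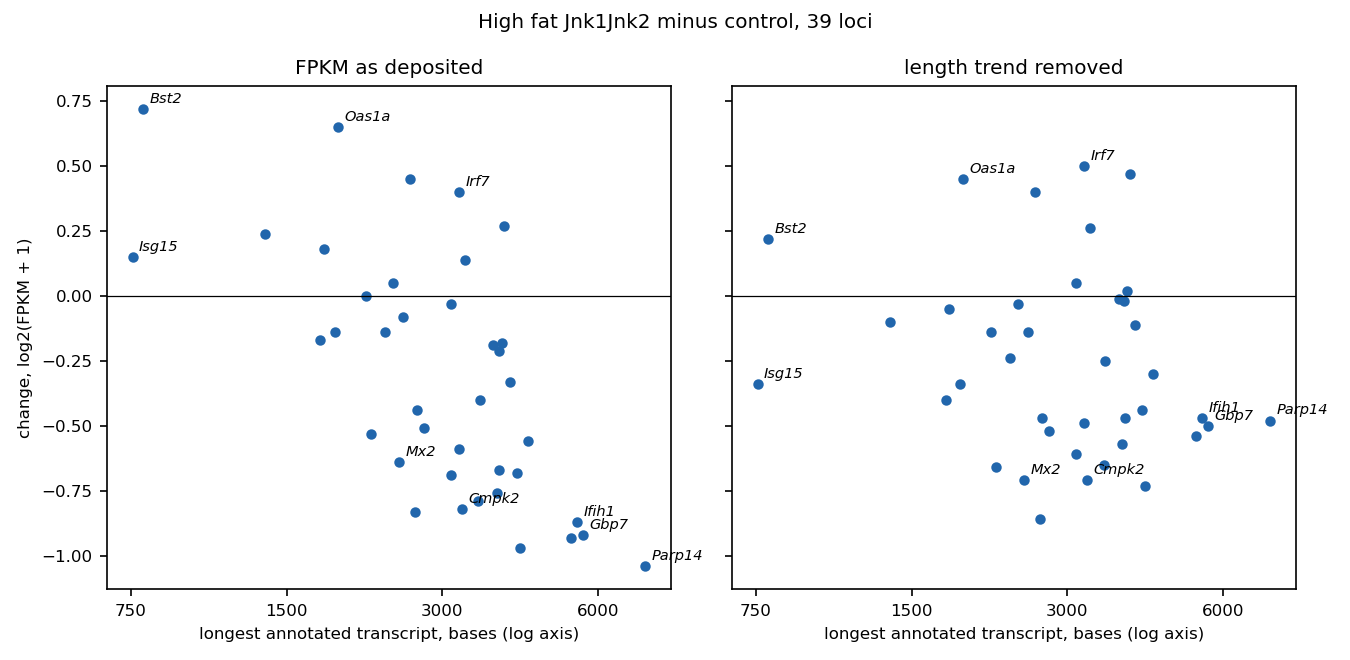
Change of 39 loci in high fat Jnk1Jnk2 against control (difference of log2(FPKM + 1)) by the length of the longest annotated transcript on a log axis, with the values as deposited on the left and with the length trend removed on the right. On the left short Bst2 lies at the top and long Parp14 at the bottom; on the right the correlation is -0.191 instead of -0.641 and most members still lie below 0.

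Livers that lacked both kinases were also compared with livers that lacked one. Against high fat Jnk1 8 members were higher and 10 lower, against 22.9% and 33.8% of all tested loci, and against high fat Jnk2 6 were higher and 8 lower, against 15.3% and 33.2%; with the length trend removed the splits were 7 higher and 6 lower, and 5 higher and 1 lower, and with size factors 9 and 8, and 10 and 4. The length-removed splits stood against 20.6% and 21.7%, and 13.8% and 14.9% of all loci. Of the members 46.2% and 35.9% were called in either direction, against 56.6% and 48.5% of all tested loci. Irf7, Oas1a, Xaf1 and Zbp1 were higher in high fat Jnk1Jnk2 than in each single knockout, also with the length trend removed. The call of Zbp1 against Jnk1 (0.45 ± 0.18, adjusted p = 0.0407; 0.57 with the length trend removed) held in 0 of 6 fits that left out 1 library.

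Zbp1 was at 16.5, 14.9 and 15.9 FPKM in high fat Jnk1Jnk2 and at 9.49, 9.09 and 6.85 FPKM in high fat Jnk2 (0.83 ± 0.18, adjusted p = 0.00121; 1.02 with the length trend removed). Oas1a was at 2.29, 2.73 and 2.84 FPKM against 1.59, 1.36 and 1.32 FPKM (0.58 ± 0.14, adjusted p = 0.00238; 0.47 with the length trend removed). Xaf1 was at 13.4, 10.9 and 12.0 FPKM against 7.22, 7.6 and 5.22 FPKM in high fat Jnk2 and 4.48, 5.61 and 6.58 FPKM in high fat Jnk1. No library of a single knockout reached the Jnk1Jnk2 range for these genes. Bst2 was higher than in high fat Jnk2 by 0.74 ± 0.18 (adjusted p = 0.00216), but by 0.19 (adjusted p = 0.39) with the length trend removed.

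Stat2, a subunit of the ISRE-binding complex, was at 9.08, 7.89 and 9.56 FPKM in high fat Jnk1Jnk2, at 13.5, 15.0 and 14.6 FPKM in high fat Jnk1 (-0.64 ± 0.09, adjusted p = 6.93e-06) and at 12.2, 10.6 and 12.1 FPKM in high fat Jnk2 (-0.36 ± 0.09, adjusted p = 0.00241). The fall against Jnk1 was 0.35 (adjusted p = 0.00227) with the length trend removed, and the change against Jnk2 was then -0.07 (adjusted p = 0.567). Against high fat Jnk1, whose libraries all lay higher, Gbp7 (-0.77 ± 0.11; Jnk1 at 3.35, 3.11 and 3.64 FPKM), Ifih1 (-0.77 ± 0.12; 6.9, 6.53 and 7.19 FPKM), Samd9l (-0.80 ± 0.13; 4.03, 4.2 and 4.62 FPKM) and Parp14 (-0.78 ± 0.12; 5.26, 4.45 and 5.88 FPKM) were lower. Parp14 (-0.17, adjusted p = 0.209) and Gbp7 (-0.30, adjusted p = 0.0589) no longer passed once the length trend was removed, and Ifih1 (-0.32, adjusted p = 0.0334) and Samd9l (-0.37, adjusted p = 0.0285) did. Samd9l was lower than in high fat Jnk2 by 0.60 (adjusted p = 0.000878), with a change of -0.23 (adjusted p = 0.21) after that removal. The count against Jnk2 was 9 in place of 14 without high fat Jnk1Jnk2 replicate 2.

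Whether the diet effect differed between genotypes was tested as an interaction. With Jnk1 no member and no other locus was called by limma (0% of all tested loci), and 6 members of 39 had an unadjusted p under 0.05, against 5.16% of all tested loci. The smallest p belonged to Parp12 (-0.36 ± 0.14), Ifi47 (-0.75 ± 0.29) and Gbp7 (-0.41 ± 0.16), each with an adjusted p of 0.92. Parp12, an antiviral ADP-ribosyltransferase gene, was at 9.24, 8.04 and 7.24 FPKM in chow Jnk1 and at 11.7, 11.6 and 10.9 FPKM in high fat Jnk1, against 7.86, 7.47 and 6.92 FPKM and 13.5, 13.5 and 14.0 FPKM in control. Ifi47 was at 12.4, 5.57 and 5.23 FPKM in chow Jnk1 and Gbp7 at 1.9, 1.56 and 1.22 FPKM, in both cases with replicate 1 highest. With Jnk2 10 members had a smaller rise than in control and none a larger one, against 3.33% and 6.18% of all tested loci, and with the length trend removed 13, against 4.66%. The count was 6 without chow control replicate 2 and without high fat control replicate 2. In 12 fits that each left out 1 library the call of Ifi47 held in 1, that of Ifit1 in 2 and that of Irgm1 in 3, and the other 7 calls held in at least 10. With Jnk1Jnk2 12 had a smaller and 3 a larger rise, against 19.1% and 15.8%.

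Parp14 had the smallest p in both of the latter. It rose in control by 0.94 ± 0.12, from 2.58, 2.6 and 3.35 FPKM to 6.55, 6.32 and 6.17 FPKM, and was at 3.31, 3.39 and 3.28 FPKM on chow and 3.13, 3.75 and 3.25 FPKM on high fat in Jnk2 mice. The difference between these diet effects was -0.93 ± 0.18 (adjusted p = 0.00468), and that between Jnk1Jnk2 and control was -0.98 ± 0.18 (adjusted p = 0.000503; -0.47, adjusted p = 0.0266, with the length trend removed). In Jnk2 mice the chow values of Iigp1 were 73.4, 82.2 and 76.9 FPKM, those of Zbp1 5.98, 4.42 and 5.23 FPKM and those of Gbp7 1.41, 1.41 and 1.54 FPKM, and the differences of their diet effects from control were -0.71 ± 0.16 (adjusted p = 0.0108), -1.02 ± 0.26 (0.0204) and -0.73 ± 0.16 (0.0102). In chow Jnk1Jnk2 Ifih1 was at 3.28, 3.54 and 3.92 FPKM, Gbp7 at 1.02, 0.916 and 1.13 FPKM and Samd9l at 1.29, 1.17 and 1.33 FPKM, and the differences were -0.91 ± 0.17 (adjusted p = 0.000634), -0.85 ± 0.16 (0.000757) and -0.93 ± 0.18 (0.000847). After removal of the length trend they were -0.57 (0.0192), -0.49 (0.0525) and -0.60 (0.0250), so that Gbp7 did not pass. None of these genes was called between these chow groups and chow control.

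The members with a larger rise in Jnk1Jnk2 were Irf7 (0.92), Oas1a (0.92) and Bst2 (1.14), of which Bst2 did not pass with the length trend removed (0.57, adjusted p = 0.0695), while Irf7 (0.93) and Oas1a (0.62) did. Of the 12 with a smaller rise 9 passed with the length trend removed, against 11.8% of all loci lower and 11.5% higher, and those lost were Gbp7, Gbp6 (-0.77, adjusted p = 0.0989) and Stat2 (-0.29, adjusted p = 0.0839).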

How the data were processed

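RNA-seq of 24 mouse liver libraries, 3 in each of 8 diet and genotype groups taken from the titles, was analysed from 1 table of FPKM per locus. Per the submitters' processing notes, TopHat, Cufflinks and Cuffdiff were run on mm10 (versions not given in the sources used here), and the deposited FPKM are the authors' values per library. Every value column belonged to a labelled sample. FPKM are not counts, so absolute depth is unknown and no counting error is given.

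Loci with a mean of at least 1 FPKM (10562 of 31027) were tested by the trend method of limma 3.58.1 (under R 4.3.3) after adding 1 and taking log2; the single model held 8 group means and left 16 residual degrees of freedom. Adjusted p is Benjamini-Hochberg over all tested loci within each of 15 contrasts, with a threshold of 0.05. A change is given on that log2 scale with its SE, and low genes appear to change less than they do. In simulated data for high fat Jnk1Jnk2 against control, run on 10562 loci, 89 of 95 loci changed by 1 and 102 of 105 changed by 2 (log2) were recovered, with 8 false calls. Only 200 loci were changed there, the noise was independent between loci, and no trend with length was added. In the measured data 51.2% of all tested loci were called in this contrast. The simulation therefore gives no false-call rate for the measured contrast.

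Alternatives were a pseudocount of 0.1, no filter, median-of-ratios size factors (0.906 to 1.1), removal of each library's loess trend (span 0.5) on log2 of the longest GENCODE vM21 transcript (9452 loci, 89.5%), the replicate number as a block, and each library left out. Members and lists were chosen with earlier results of these data known. Values per library are given for up to 5 called members of smallest p in each contrast (the 3 of smallest p where fewer than 3 were called) and the 5 highest members; Irf1, Xaf1, Isg15, Ifit1, Gbp6 and a few other members with printed values were added after their values were seen, and pathway genes are those called with the smallest p, with the receptors. Promoters are RefSeq windows on GRCm38.p6. Figures used Python 3.11.15 and matplotlib 3.10.9. A result that the naming rule also asked for is not reported here.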

Additional observations from a re-analysis of the deposited data

Results flagged for a closer look

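The diet effect differed between a knockout genotype and control, by a test of the interaction in limma, for the following members. In Jnk2 mice the rise on high fat was smaller for Zbp1 (by -1.02 on the log2 scale), Ifit1 (-1.0), Ifi47 (-0.94), Parp14 (-0.93), Ifih1 (-0.76), Gbp7 (-0.73), Iigp1 (-0.71), Irgm1 (-0.62), Parp12 (-0.54) and Parp9 (-0.5). These 10 of 39 members stood against 3.33% of all tested loci called lower in this interaction. All 10 were also called with the length trend removed, against 4.66% of all loci lower. Without chow control replicate 2 or high fat control replicate 2 the count was 6. Of 12 fits that each left out 1 library, Ifi47 was called in 1, Ifit1 in 2 and Irgm1 in 3, and each of the others in at least 10.

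In Jnk1Jnk2 mice the rise was larger for Bst2 (1.14), Irf7 (0.92) and Oas1a (0.92). It was smaller for Parp14 (-0.98), Gbp6 (-0.94), Samd9l (-0.93), Ifih1 (-0.91), Gbp7 (-0.85), Irgm1 (-0.67), the Igtp/Irgm2 locus (-0.64), Iigp1 (-0.58), Ddx58 (-0.57), Parp9 (-0.55), Stat2 (-0.48) and Parp12 (-0.48). Both sets share the control libraries of both diets. The 3 larger and 12 smaller rises among 39 members stood against 15.8% of all tested loci called higher and 19.1% lower. Calls in this interaction were thus common over all loci. Of these 15 members 2 of the 3 with a larger rise and 9 of the 12 with a smaller one passed with the length trend removed. Under that setting 11.5% of all loci were higher and 11.8% lower. Bst2, Gbp6, Gbp7 and Stat2 did not pass.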

How the results depend on the processing

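The counts of called members kept within 1.5 times their value under every planned setting that kept all libraries, apart from the following. In chow Jnk1 against control 1 member was called with no filter on low values, in place of 2. In high fat Jnk1 against control 2 were called with size factors and 1 with the length trend removed, in place of 0. In high fat Jnk1Jnk2 against Jnk2 6 were called with the length trend removed, in place of 14, and size factors moved the median of all loci there from -0.141 to -0.022. The cause was not tested.

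With each library left out in turn the counts ranged from 34 to 35 for the diet in control, 30 to 35 in Jnk1, 20 to 32 in Jnk2 and 28 to 31 in Jnk1Jnk2. They ranged from 0 to 3 in chow Jnk1, 0 to 1 in high fat Jnk1, 5 to 14 in high fat Jnk2 and 18 to 21 in high fat Jnk1Jnk2 against control, and stayed at 0 in chow Jnk2 and chow Jnk1Jnk2. The interactions gave 0 with Jnk1, 6 to 11 with Jnk2 and 14 to 17 with Jnk1Jnk2, and high fat Jnk1Jnk2 gave 15 to 17 against Jnk1 and 9 to 15 against Jnk2.

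The lowest correlation of same-numbered deviations in a contrast lay between -0.26 and 0.027. The highest single one was 0.207, for replicate 1 in high fat Jnk1Jnk2 against control. These values do not settle whether the replicate numbers pair the samples. With the replicate number as a block the counts were 35, 34, 27 and 30 for the diet in control, Jnk1, Jnk2 and Jnk1Jnk2, 12 and 20 for high fat Jnk2 and Jnk1Jnk2 against control, 9 and 15 for the 2 interactions, 18 and 15 for Jnk1Jnk2 against Jnk1 and Jnk2, 2 for chow Jnk1, and 0 elsewhere. Depth is not known in fragments, so members near 1 FPKM carry an unmeasured counting error.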
